A study of Mus musculus with 2 samples.

Results

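The genes described here are 48 genes that lie along mouse chromosome 9 on both sides of Drd2, the gene of the dopamine D2 receptor, in the segment that also holds the small heat shock gene Cryab. They were taken from a list of named genes chosen for their position, with earlier results of these data known. The list runs from Bace1 at the outer end before Drd2 to Sln at the outer end after it. Its genes are 48 of 18193 genes that the arrays measured with probe sets paired with 1 gene alone. Striatal tissue of naïve C57BL/6 males aged 2 months was measured on Affymetrix expression arrays, with 1 array for wild-type mice and 1 for mice of the genotype Drd2-/-. The labels name no treatment for either sample. How the Drd2-/- allele was made, for how many generations it was crossed to C57BL/6, and whether a sample was 1 animal or a pool are not stated in the sources used here.

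A gene altered by homologous recombination is passed on together with the DNA beside it. When the embryonic stem cells that were targeted and the strain used for later breeding differ, alleles of the first strain can stay linked to the altered gene through many backcrosses, and flanking genes can then differ between knockout and wild-type mice in sequence or in expression. The genes of this segment have varied roles: they include a pterin enzyme on the way to the cofactor of dopamine synthesis, mitochondrial enzymes, kinases, adhesion molecules of the synapse and the DNA damage kinase Atm. Loss of the receptor and any difference in DNA linked to the targeted allele would both separate the arrays, and cannot be told apart here. In tissue RNA, fewer cells of a type and less RNA per cell also cannot be told apart.

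With 1 array per genotype no value has a replicate error, no difference was tested and no p-value is given. The measure was the log2 ratio of signals, Drd2-/- divided by wild type, where signal is the authors' linear intensity of a probe set in arbitrary units, and a gene was counted as higher or lower when the arrays were at least 1.5-fold apart (0.58 on the log2 scale). A gene was represented by its brightest probe set and counted as detected when that probe set was called present on at least 1 array. Where it was present on only 1 array the ratio is a bound. Of the 45101 probe sets, 57.9% had a present call in wild type and 58.7% in Drd2-/-. Drd2 itself read 3234.8 units with a present call under the label wild type and 27.4 units with an absent call under the label Drd2-/-. Where its probe set lies relative to the altered part of the gene is not stated in the sources used here. The authors' table that compares the arrays carries identical signals under swapped genotype names; the sample labels were followed, and with the other names every direction below would be the reverse. All 6 measured markers of striatal projection neurons were present on both arrays at 7585 units or more.

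The promoters of 5 members are shown first, because these genes carry the differences described below: Pts, Bco2 and Alg9 had lower signals in Drd2-/-, and Npat and Cul5 had higher signals by every detected probe set. Each window runs from 250 bases before to 50 bases after the start of transcription in RefSeq (build GRCm38.p6) and is written 5′ to 3′ along the gene. Capitals mark 3 short motifs on either strand: the TATA box letters TATAAA, the CCAAT box letters CCAAT and the GC box letters GGGCGG. The windows are chr9:50528607-50528906 on the minus strand for Pts, chr9:50555089-50555388 on the minus strand for Bco2 (the farther upstream of its 2 listed starts), chr9:50774975-50775274 on the plus strand for Alg9, chr9:53536797-53537096 on the plus strand for Npat and chr9:53667458-53667757 on the minus strand for Cul5.
Pts: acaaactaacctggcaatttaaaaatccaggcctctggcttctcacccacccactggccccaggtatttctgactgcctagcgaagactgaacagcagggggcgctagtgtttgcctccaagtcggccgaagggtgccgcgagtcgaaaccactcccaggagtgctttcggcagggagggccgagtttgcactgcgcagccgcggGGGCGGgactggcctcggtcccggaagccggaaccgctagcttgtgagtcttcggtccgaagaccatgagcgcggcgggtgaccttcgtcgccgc
Bco2: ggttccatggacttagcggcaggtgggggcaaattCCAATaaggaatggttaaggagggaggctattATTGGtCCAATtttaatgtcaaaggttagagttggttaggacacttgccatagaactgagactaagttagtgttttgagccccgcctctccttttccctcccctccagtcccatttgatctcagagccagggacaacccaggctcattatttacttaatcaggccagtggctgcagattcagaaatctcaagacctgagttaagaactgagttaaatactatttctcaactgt
Alg9: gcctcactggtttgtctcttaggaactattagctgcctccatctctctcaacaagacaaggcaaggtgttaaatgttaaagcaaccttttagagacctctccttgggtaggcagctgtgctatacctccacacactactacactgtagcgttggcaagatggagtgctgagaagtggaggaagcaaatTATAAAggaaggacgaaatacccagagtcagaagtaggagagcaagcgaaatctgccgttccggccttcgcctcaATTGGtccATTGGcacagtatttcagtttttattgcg
Npat: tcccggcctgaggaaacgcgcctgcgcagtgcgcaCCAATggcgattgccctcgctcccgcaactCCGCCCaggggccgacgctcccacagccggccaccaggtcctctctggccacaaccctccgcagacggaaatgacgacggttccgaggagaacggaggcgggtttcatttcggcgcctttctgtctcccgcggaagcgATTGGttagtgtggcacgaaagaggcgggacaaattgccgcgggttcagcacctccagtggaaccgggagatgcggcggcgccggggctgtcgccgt
Cul5: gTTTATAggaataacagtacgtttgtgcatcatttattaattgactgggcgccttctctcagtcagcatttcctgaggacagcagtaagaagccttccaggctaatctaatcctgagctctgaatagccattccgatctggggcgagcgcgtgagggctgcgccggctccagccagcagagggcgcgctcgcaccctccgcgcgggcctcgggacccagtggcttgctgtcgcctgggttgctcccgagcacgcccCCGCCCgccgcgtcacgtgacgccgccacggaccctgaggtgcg

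No motif of the 3 occurred in all 5 windows. The window of Pts held 1 GGGCGG, that of Bco2 3 CCAAT, that of Alg9 1 TATAAA and 2 CCAAT, that of Npat 2 CCAAT and 1 GGGCGG, and that of Cul5 1 TATAAA and 1 GGGCGG. Their count of CG pairs ran from 2 in Bco2 and 7 in Alg9 to 25 in Pts, 27 in Cul5 and 35 in Npat, so that among the lower genes both CG-poor and CG-rich promoters occurred. RefSeq windows were matched by symbol for 39 of the 48 members, 48 windows in all. GGGCGG occurred in 56.3% of these, against 35.7% of all 32851 mouse promoter windows, CCAAT in 35.4% against 37.4%, and TATAAA in 10.4% against 13.6%. The median number of CG pairs was 23 in the members' windows and 7 in all windows. All windows were not limited to genes measured on the arrays, and overlapping windows of members were each counted. The 2 sets are therefore unlike, and these differences were not tested.

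Of the 48 members 40 were detected, 37 of them on both arrays. Their representative signals ran from 21.4 to 5063.1 units. In the Drd2-/- array 10 detected members were at least 1.5-fold higher, 25% of them against 9.18% of all 12588 detected genes. At least 1.5-fold lower were 3, or 7.5% against 3.38%, and the other 27 lay within 1.5-fold. After quantile normalization the same 3 were lower, 7.5% against 7.28% of all genes, and 12.5% of the members were higher against 6.09%, so the excess of lower members was then near 0. The median log2 ratio of the detected members was 0.05, and that of all detected genes was -0.06. The median absolute log2 ratio was 0.21 for the members and 0.22 for all detected genes, but 0.26 and 0.20 once the trend of ratio on signal was subtracted, so which of them was larger depended on the centring. The 666 detected genes of chromosome 9 outside the segment had 8.71% higher and 4.20% lower genes with a median of -0.06.

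**Figure D1:**
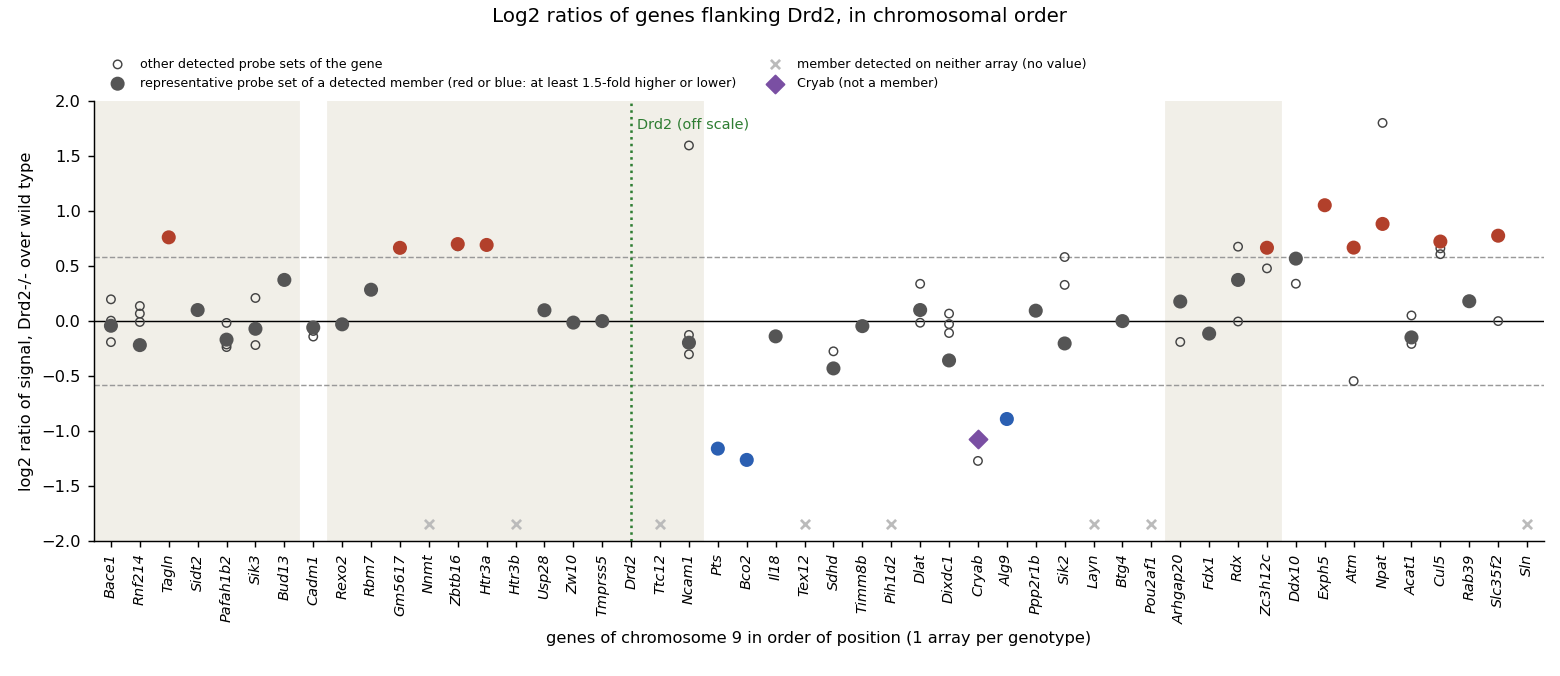
Log2 ratio of signal (vertical axis, Drd2-/- over wild type, 1 array each) for the members in their order along chromosome 9 (horizontal axis), with filled points for the representative probe set, open circles for other detected probe sets, crosses for members detected on neither array and dashed lines at 1.5-fold. Probe sets with no ratio (Tmprss5, Btg4 and 1 of Slc35f2) are drawn at 0, and Cryab is a diamond. Alternating shading marks 6 blocks of neighbouring members. Pts, Bco2 and Alg9 lie below the lower line in the same block as Cryab, beside 3.38% of all detected genes. In the last block, 5 of the 8 detected members lie above the upper line, beside 9.18% of all detected genes.

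Distance split the members into 6 blocks wherever neighbouring members were more than 0.5 Mb apart in the mouse assembly. Block 1 held Bace1, Rnf214, Tagln, Sidt2, Pafah1b2, Sik3 and Bud13. Block 2 held Cadm1 alone, block 3 ran from Rexo2 to Ncam1 with Drd2 inside it, block 4 from Pts to Pou2af1 with Cryab inside it, block 5 from Arhgap20 to Zc3h12c and block 6 from Ddx10 to Sln. The lower genes all lay in block 4. Of its 11 detected members 3 were lower, beside 3.38% of all detected genes (7.28% after quantile normalization). In this block 0 were higher, and the median log2 ratio was -0.20. In block 6, 5 of 8 detected members were higher, beside 9.18% of all detected genes, 0 were lower and the median was 0.70. The medians of blocks 1, 3 and 5 were -0.04, 0.10 and 0.28. The blocks also differed in signal: the median wild-type signal was 185 units in block 6 and 1898 units in block 4. In the dimmest of 4 equal groups of all detected genes by signal, 20.4% were higher.

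Pts encodes 6-pyruvoyl-tetrahydropterin synthase, which makes an intermediate of tetrahydrobiopterin, the cofactor of tyrosine hydroxylase in dopamine synthesis. It read 792.2 units in wild type against 354.3 units in Drd2-/-, 2.24-fold lower, a log2 ratio of -1.16. Both arrays called it present, and its log ratio in the authors' deposited table, with the sign set by the labels of the samples, was -0.9 between limits of -1.4 and -0.5, with a call of decreased. Its second probe set was called absent on both arrays, so the value rests on 1 probe set.

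Bco2, the next member in order, encodes an enzyme that cleaves carotenoids. It read 166.4 units and present in wild type and 69.3 units and absent in Drd2-/-, at least 2.40-fold lower (log2 ratio at most -1.26). The authors' deposited table puts Bco2 at -1.2 between -1.9 and -0.6, called decreased. Bco2 has only this probe set on the array.

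Alg9 encodes a mannosyltransferase of N-glycan assembly in the endoplasmic reticulum, and is the next member after Cryab. It read 605.4 units in wild type against 326.4 units in Drd2-/-, 1.85-fold lower with a log2 ratio of -0.89. The authors' deposited table puts Alg9 at -0.6 between -0.9 and -0.2, called decreased. Its other probe set was absent on both arrays. Pts, Bco2 and Alg9 were the only detected members that the authors' table calls decreased, 7.5% against 5.67% of all detected genes. Cryab, which encodes αB-crystallin and lies between Dixdc1 and Alg9, read 6222.4 and 2961.8 units, a log2 ratio of -1.07, with its other detected probe set at -1.27.

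The other detected members of block 4 lay within 1.5-fold. Among genes of mitochondrial proteins, Sdhd, the membrane anchor of succinate dehydrogenase, read 3392.4 units in wild type against 2516.8 in Drd2-/- (log2 ratio -0.43), and its second probe set gave -0.28. Timm8b, a chaperone of mitochondrial protein import, read 3069.2 and 2973.4 units (-0.05), and Dlat, the acetyltransferase subunit of pyruvate dehydrogenase, 1897.7 and 2035.2 units (0.10). The other probe sets of Dlat gave 0.34 and -0.01. Dixdc1, a protein of Wnt signalling, read 3139.1 and 2449.1 units (-0.36), while its other 3 detected probe sets gave -0.11, 0.07 and at most -0.03. Il18, Sdhd, Timm8b, Dlat and Dixdc1, which lie in order between Bco2 and Alg9, were thus all within 1.5-fold. The cytokine gene Il18 read 2132.5 and 1936.8 units, a log2 ratio of -0.14. Ppp2r1b, a scaffold subunit of protein phosphatase 2A, read 482.7 and 515.5 units (0.09). The salt-inducible kinase gene Sik2 read 1946.5 and 1690.4 units (-0.20), but its dimmer probe sets gave 0.33 and 0.58. Btg4, known for its role in the decay of maternal messages in oocytes, had a present call at 21.4 units in wild type and an absent call at 35.4 units in Drd2-/-, and has no ratio.

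Block 6, farthest after Drd2 in order, held the highest ratio of any detected member. Exph5, an effector of Rab27 in vesicle transport, read 139.5 units in wild type against 289.8 units in Drd2-/-, 2.08-fold higher (log2 ratio 1.05), from its only probe set. The authors' deposited table gives it a smaller log ratio of 0.5 (limits of 0.3 and 0.8) with a call of increased. Npat, a coactivator of histone gene transcription, read 389.5 and 719.1 units, 1.85-fold higher (0.88), and its second probe set went from 37.6 units and absent to 131.3 units and present, at least 1.80 on the log2 scale. Cul5, the scaffold of a ubiquitin ligase, read 389.9 and 644.1 units (0.72), and its other 2 probe sets gave 0.66 and 0.61. The authors' deposited table calls all 3 probe sets of Cul5 and both of Npat increased. For these 2 genes every probe set thus lay on the higher side.

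Atm did not have a settled direction. The brighter probe set of this DNA damage kinase gene read 171.9 units in wild type against 273.3 units in Drd2-/- (log2 ratio 0.67), and the dimmer one, designed on a full-length message, 147.3 and 100.9 units (-0.55). The authors' deposited table calls both unchanged, at 0.8 and -0.3. Slc35f2, a solute carrier, read 56.3 and 96.5 units (0.78), and its second probe set had no ratio. The authors' deposited table calls Slc35f2 unchanged at 0.6 with limits of -0.1 and 1.3. Ddx10, an RNA helicase, fell just short of 1.5-fold with 198.0 and 293.7 units (0.57), and the authors' deposited table calls it increased at 0.4. Rab39, a small GTPase, read 56.9 and 64.5 units (0.18). Acat1, a mitochondrial thiolase and the brightest gene of the block, read 4403.4 and 3972.5 units (-0.15), and its other probe sets gave 0.05 and -0.21. Acat1 was thus nearly equal on the arrays, and so was Rab39, among the dimmest genes of the block.

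In block 5, Zc3h12c, of a family of RNA-degrading zinc finger proteins, read 300.1 and 476.7 units, a log2 ratio of 0.67, and 0.48 by its second probe set. Rdx encodes radixin, which links actin filaments to the plasma membrane. Its representative read 1270.9 and 1647.8 units (0.37), and its other probe sets gave 0.68 and -0.00. The authors' deposited table gives 0.3 for all 3, and calls the first 2 increased and the last unchanged. Arhgap20 read 1190.1 and 1346.4 units (0.18) and had a second probe set at -0.19. Fdx1, a mitochondrial ferredoxin, read 1249.4 and 1154.7 units (-0.11).

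**Figure D2:**
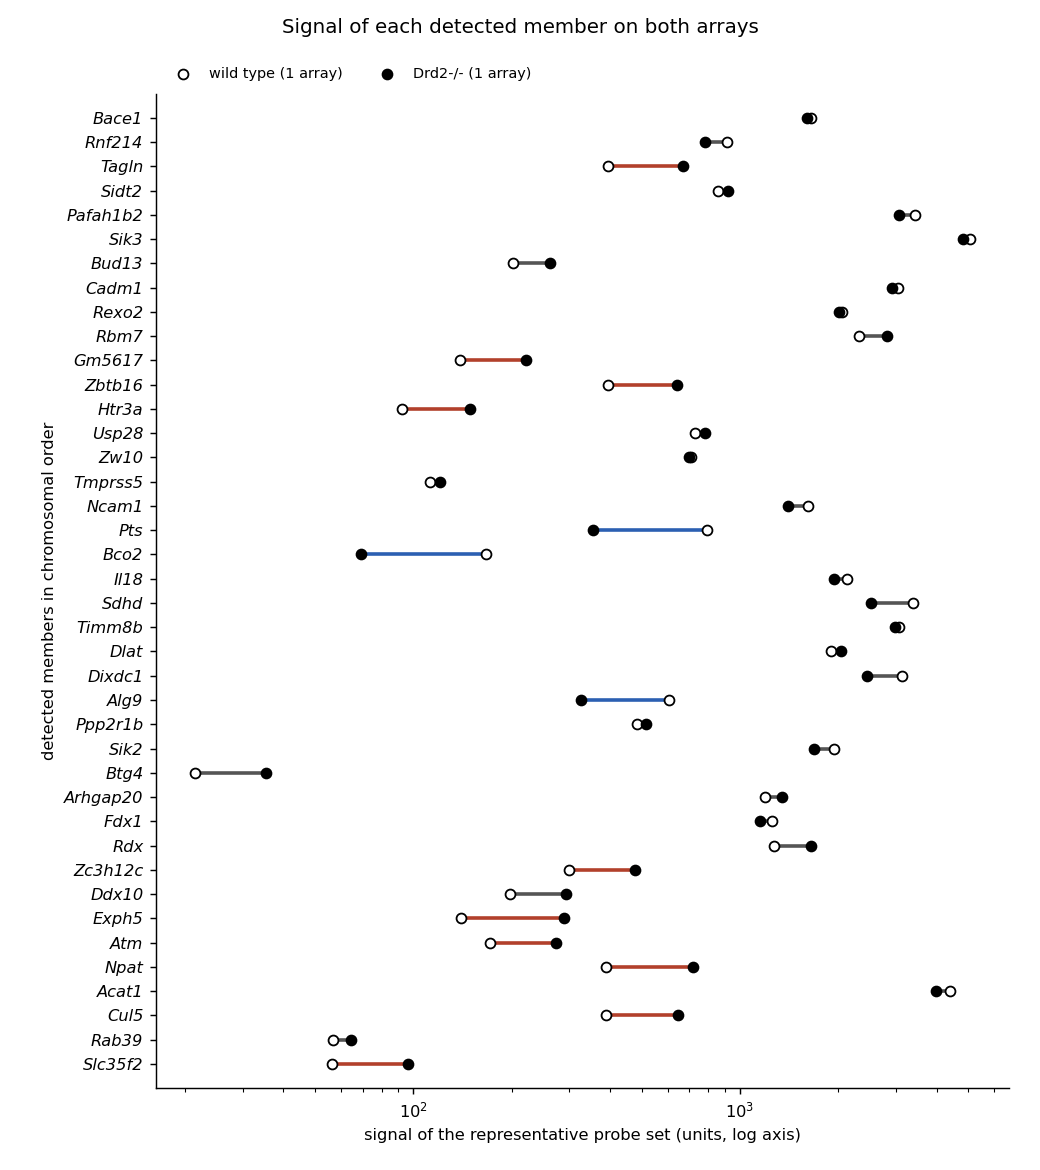
Signal of the representative probe set of each of the 40 detected members (horizontal log axis, arbitrary units), with an open point for the wild-type array, a filled point for the Drd2-/- array and a joining line in red where at least 1.5-fold higher in Drd2-/-, blue where at least 1.5-fold lower and grey otherwise. No red or blue line reaches above the 792.2 units of Pts in wild type, and the brighter genes show short lines.

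Close to Drd2, block 3 held 3 higher genes among its 9 detected members, beside 9.18% of all detected genes. Zbtb16, a zinc finger transcription factor also called PLZF, read 394.4 units in wild type against 641.2 units in Drd2-/-, 1.63-fold higher (log2 ratio 0.70). Its other probe sets gave 0.68 and at least 0.69, so the 3 were nearly equal in size. The authors' deposited table puts the brightest at 0.8 between 0.7 and 1.0, called increased, and the others at 0.3 and 0.6, both called unchanged. Htr3a, a subunit of the serotonin-gated ion channel, read 92.4 and 149.4 units (0.69), but the authors' deposited table gives it 0.1 with limits of -0.6 and 0.9, called unchanged. Its partner subunit Htr3b was detected on neither array, at 4.1 and 3.0 units. Gm5617 read 139.2 and 221.0 units (0.67) and is unchanged in the authors' deposited table, at 0.3.

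Of the members nearest to Drd2, Zw10 and Usp28 were nearly equal on the arrays. Zw10, a protein of the kinetochore and of membrane traffic, read 705.9 and 699.3 units (log2 ratio -0.01) and the deubiquitinase gene Usp28 729.4 and 781.1 units (0.10). The serine protease gene Tmprss5, first before Drd2 among the members, was present at 112.4 units in wild type and marginal at 120.2 units in Drd2-/-, and has no ratio. Ttc12, first after Drd2, was detected on neither array, at 149.5 and 106.6 units, so neither member directly beside Drd2 gives a ratio. Ncam1, the neural cell adhesion molecule, read 1613.0 and 1407.4 units (-0.20), and 2 more probe sets designed on its messages gave -0.13 and -0.30. Another detected Ncam1 probe set, designed on an expressed sequence tag, read 123.6 units in wild type against 374.4 units in Drd2-/-, a log2 ratio of 1.60. The authors' deposited table also gives 1.6 for it, with limits of 1.3 and 1.9. This dim probe set thus went against the brighter probe sets of the same gene. Rbm7, an RNA-binding subunit of a nuclear complex that targets transcripts for decay, read 2317.5 and 2824.9 units (0.29, called increased at 0.3 in the authors' deposited table), and the mitochondrial nuclease gene Rexo2 2054.2 and 2012.7 units (-0.03).

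Farther out on the same side, the genes before Drd2 held 1 more higher gene. Tagln encodes transgelin, an actin-binding protein of smooth muscle, and read 394.9 units in wild type against 669.9 in Drd2-/-, 1.70-fold higher with a log2 ratio of 0.76. The authors' deposited table gives it 0.5, called increased. Of 6 markers of smooth muscle and pericytes, Tagln included, 4 were detected and Tagln alone was 1.5-fold apart. The detected others were Acta2 at 0.06, Rgs5 at 0.36 (called increased in the authors' deposited table) and Pdgfrb at -0.04 on the log2 scale. All 6 markers, Tagln and the undetected Cnn1 and Myh11 included, summed to 4898 units in wild type and 6025 in Drd2-/-, none was listed at 0, and their part in the Tagln difference was not tested.

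The other members before Drd2 differed little. Sik3, a salt-inducible kinase and the brightest member, read 5063.1 and 4823.7 units (log2 ratio -0.07), with 0.21 and -0.22 by its other detected probe sets. The synaptic adhesion gene Cadm1 read 3041.6 and 2921.1 units (-0.06), and its 4 probe sets lay between -0.14 and -0.06. Pafah1b2, a catalytic subunit of platelet-activating factor acetylhydrolase, read 3441.4 and 3061.3 units (-0.17), and all 4 of its probe sets were below 0. Bace1, the protease that starts the cleavage of amyloid precursor protein, read 1650.5 and 1602.7 units (-0.04), with the other 3 probe sets between -0.19 and 0.20. Rnf214, a RING finger gene, read 911.7 and 783.6 units (-0.22), with its other 3 probe sets between -0.01 and 0.14. Sidt2, a lysosomal membrane protein, read 856.2 and 918.1 units (0.10), and the splicing-associated gene Bud13 201.5 and 261.3 units (0.37). All these genes are called unchanged in the authors' deposited table. Across the segment, 6 genes listed as those of mitochondrial proteins (Rexo2, Sdhd, Timm8b, Dlat, Fdx1 and Acat1) lay between -0.43 and 0.10. The list leaves out Bco2 (log2 ratio at most -1.26), which was counted with other metabolic enzymes. None of the 6 listed was 1.5-fold apart, beside 12.6% of all detected genes. Of the 6, 5 were among the brightest genes of the array, where few genes were apart.

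The 8 members detected on neither array read from 3.0 to 149.5 units and give no ratio. Besides Htr3b and Ttc12 they were Nnmt, a methyltransferase of nicotinamide, Tex12, a meiotic chromosome protein, Pih1d2, the hyaluronan receptor gene Layn, the B cell coactivator gene Pou2af1 and Sln, whose product inhibits the calcium pump of muscle. Of all 98 probe sets of the members 79 were detected. At the level of probe sets 17 were at least 1.5-fold higher, 21.5% of those detected, against 14.2% of all detected probe sets paired with 1 gene and 19.2% of all detected probe sets. At least 1.5-fold lower were 3, or 3.80% against 3.33% and 3.22%. Of the 79 detected member probe sets the authors' deposited table calls 14 increased and 3 decreased. Over all detected probe sets, which include those paired with no gene or with several, it calls 14.8% increased and 3.94% decreased. By probe sets the members therefore lay closer to the background than by genes.

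**Figure D3:**
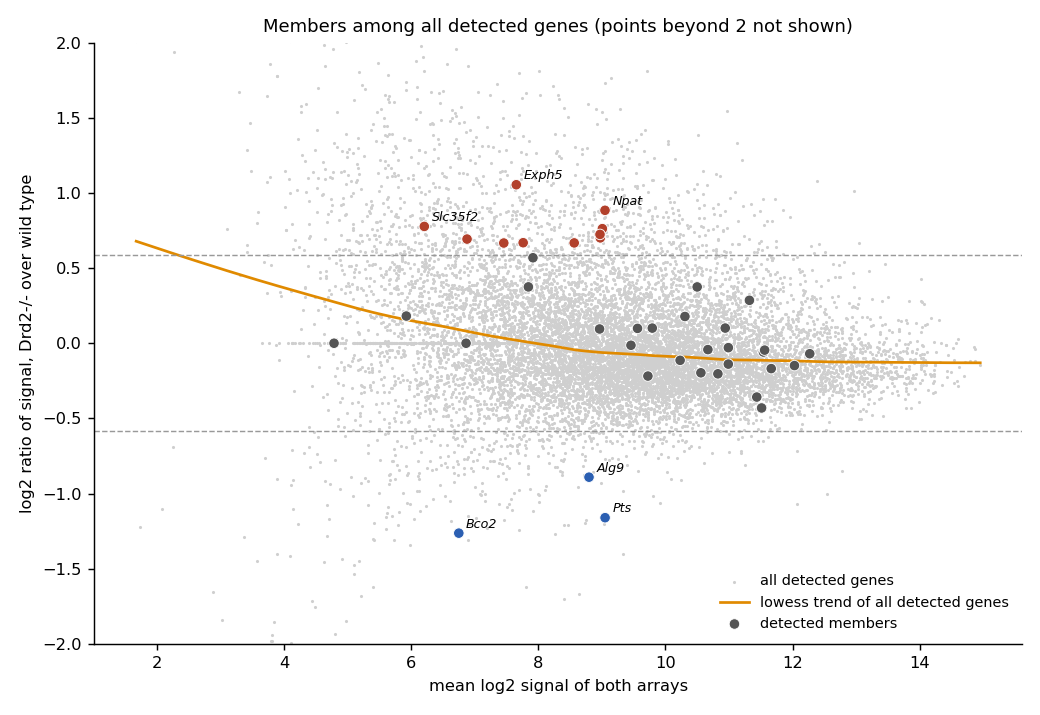
Log2 ratio of signal (vertical axis, Drd2-/- over wild type) against the mean log2 signal of both arrays (horizontal axis) for all detected genes (light grey, points beyond 2 not shown), with their lowess trend in orange, and for the 40 detected members (red at least 1.5-fold higher, blue at least 1.5-fold lower, dark grey within 1.5-fold, dashed lines at 1.5-fold). The trend slopes from above 0 among dim genes to below 0 among bright genes. The members outside the dashed lines all have mean log2 signals of 9.05 (Pts) or less.

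The detected genes were divided by mean log2 signal into 4 groups of equal size, from dim to bright, and all 13 members at least 1.5-fold apart lay in groups 1 and 2. In group 1, 5 of 10 members were higher, against 20.4% of all genes there, and 1 was lower, against 7.94%. In group 2, 5 of 9 members were higher, against 8.01%, and 2 were lower, against 3.11%. In group 3, 0 of 7 members were apart, where 5.91% of all genes were higher and 1.87% lower. In group 4, 0 of 14 members were apart, against 2.38% and 0.604%. Such ratios were thus most frequent among dim genes over the whole array as well. The median log2 ratio of all detected genes was 0.06 in group 1 and -0.14 in group 4. With the lowess trend subtracted, the same 10 members were higher and the same 3 lower, and the median of the members was 0.07.

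The authors' deposited table gave smaller differences for several higher genes. It calls 9 detected members increased, 22.5% against 8.79% of all detected genes: Tagln, Rbm7, Zbtb16, Rdx, Zc3h12c, Ddx10, Exph5, Npat and Cul5. Of the 10 members higher by signal it calls 6 increased and 4 unchanged, the latter being Gm5617, Htr3a, Atm and Slc35f2. The limits in that table come from the probes of 1 pair of arrays and not from animals. They included 0 for Gm5617, Htr3a and Slc35f2, and for none of Pts, Bco2 and Alg9.

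**Figure D4:**
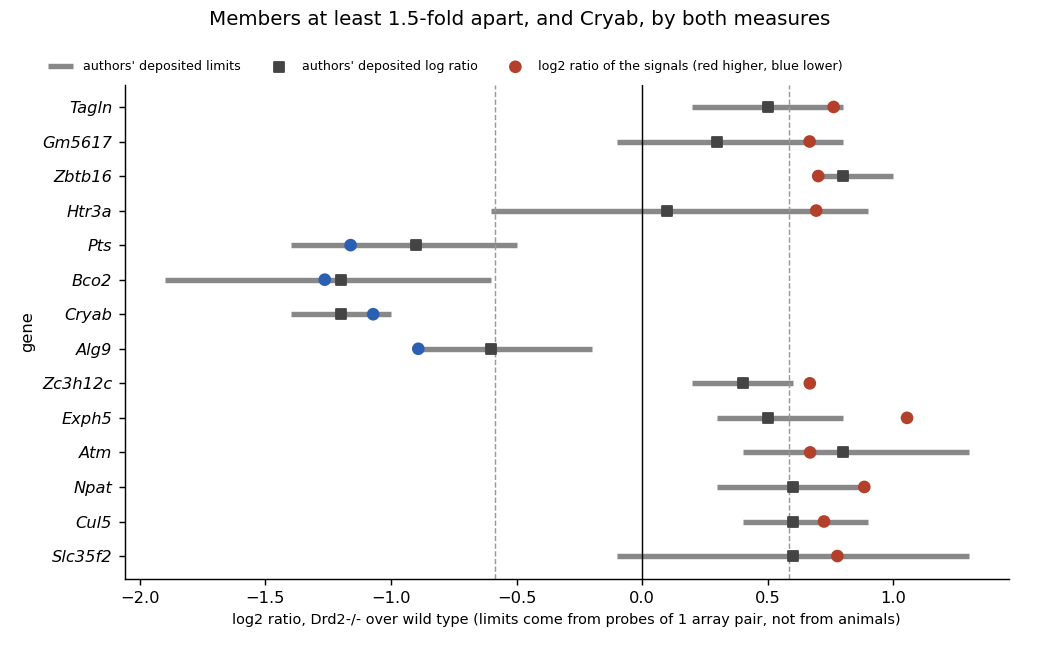
Log2 ratio of the signals (round points, red higher and blue lower in Drd2-/-) beside the authors' deposited log ratio (squares) and its limits (bars), on the horizontal axis, for the 13 members at least 1.5-fold apart and for Cryab (vertical axis, in chromosomal order). The bars of Pts, Bco2, Cryab and Alg9 lie wholly below 0, those of Gm5617, Htr3a and Slc35f2 cross 0, and the signal ratios of Exph5 and Zc3h12c lie above their bars.

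Of the members, 20 had 2 or more detected probe sets. The highest and lowest log2 ratio of a gene's probe sets lay a median of 0.36 apart, against 0.37 over all 6114 such genes on the array. In 11 of the 20 members (55.0%) the probe sets lay on both sides of 0, against 42.0% of all such genes. Ncam1 and Atm were the 2 members whose probe sets were at least 1 log2 unit apart, 10.0% against 13.7%. Disagreement of this size between probe sets of 1 gene was thus no more frequent here than elsewhere on the array.

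The kind of sequence a probe set was designed on differed between the groups. All 3 lower genes were represented by probe sets designed on full-length messages. Of the 20 detected members with such representatives 3 were higher and 3 lower, against 6.74% and 3.18% of all such genes. Of 10 represented by probe sets from expressed sequence tags 4 were higher and 0 lower, against 11.7% and 3.47%. Of 10 from other messages 3 were higher and 0 lower, against 10.0% and 3.68%.

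Some members start head to head. In 4 pairs the starts in RefSeq lay within 1000 bases of each other on opposite strands: Rbm7 and Gm5617 (13 bases between the starts), Sdhd and Timm8b (52), Pafah1b2 and Sik3 (130), and Atm and Npat (376). The windows of Atm and Npat share 125 bases, so that part of the Npat sequence shown above also belongs to the window of Atm. The log2 ratios of the pairs were 0.29 and 0.67 for Rbm7 and Gm5617, -0.43 and -0.05 for Sdhd and Timm8b, -0.17 and -0.07 for Pafah1b2 and Sik3, and 0.67 and 0.88 for Atm and Npat. Further probe sets of Atm (-0.55) and Sik3 (0.21) lay on the other side of 0 from the representative.

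Between the outermost members the mouse assembly lists 158 genes, 77 of them protein coding. Of those that are not members 26 were measured and 14 detected, Drd2 and Cryab among them. Without Drd2, the targeted gene, and Cryab, which helped to define the segment, 5 of 12 were at least 1.5-fold apart, against 12.6% of all detected genes, and the authors' deposited table calls 2 of these 5 changed. They were 2310030G06Rik, next to Cryab, at 266.0 units and present in wild type and 117.5 units and marginal in Drd2-/- (log2 ratio at most -1.18), Nkapd1 at 165.3 and 293.9 units (0.83), Zpr1 at 799.8 and 502.6 units (-0.67), Nxpe4 at 441.8 and 291.2 units (-0.60) and 2900052N01Rik at 990.8 and 1497.9 units (0.60). The authors' deposited table calls Nxpe4 decreased (-0.9) and 2900052N01Rik increased (0.5), and 2310030G06Rik (-0.6), Nkapd1 (0.5) and Zpr1 (-0.2) unchanged. Nkapd1 lies within the block that holds Pts, Bco2 and Alg9 and was higher where they were lower. Markers of excitatory neurons of the cortex, which adjoins the striatum, were at least 1.5-fold lower in Drd2-/- in 4 of 9 detected cases. The share was 3.38% over all detected genes and 7.94% in the dimmest of the 4 signal groups. The 4 were Neurod6 (log2 ratio -2.51), Tbr1 (at most -2.12), Slc17a7 (-1.62) and Rtn4rl2 (-0.82). The summed signal of all 11 measured markers was 14633 units in wild type against 14966 in Drd2-/-, but most of it came from Nrgn, Lamp5 and Mef2c, at 0.08, 0.17 and 0.05. None was listed at 0. Their part in the values given here was not tested.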

How the data were processed

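Striatal RNA of 1 wild-type and 1 Drd2-/- sample was measured on 1 array each. The authors deposited 1 linear signal intensity per probe set, and the file headers name a scaling step. With 2% cut from each end, the mean of either array came to 500.0. Their comparison table adds detection calls, a log ratio with limits (the deposited values follow a log2 scale) and change calls. Software: not given in the sources used here. At all 45101 probe sets its signals equalled those of the oppositely named sample, so calls were attached by signal and ratios turned to the sample labels.

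With 64 control probe sets left out, 34945 were paired with 1 gene by the platform annotation, and 34741 of these had a gene number in the RefSeq table of GRCm38.p6, used for names and gene order. Signals under 0.1 were set to 0.1. For genes present on 1 array the dim side was taken at its own signal or at the lowest signal with a present call on that array (5.0 or 5.9 units), whichever was larger. A bound that crossed 0 was set at 0 and is written as no ratio. Ratios were computed with Python 3.11.15, pandas 2.3.3 and statsmodels 0.14.6 (lowess span 0.2) and checked on simulated data. Every detected member could be named; other genes named were Drd2, Cryab, genes of the segment at least 1.5-fold apart and tissue markers. The members and lists were chosen with earlier results of these data known. With 1 array per genotype, precision is limited by the number of arrays. The alternatives were median, quantile and lowess centring, 32 added units, other filters on detection, the median over probe sets, the authors' log ratio and a 2-fold size.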

Additional observations from a re-analysis of the deposited data

How the results depend on the processing

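The count of 10 higher members was 5 after quantile normalization (Cul5, Exph5, Npat, Tagln and Zbtb16) and 6 with 32 units added to both arrays. It was 6 by the authors' deposited log ratio and 1 at 2-fold (Exph5), and lay between 7 and 14 under the other alternatives. The 6 by the authors' deposited log ratio were Atm, Btg4, Cul5, Npat, Slc35f2 and Zbtb16, and Btg4 is not among the 10. The counts of 5, 6, 6 and 1 were 12.5%, 15%, 15% and 2.5% of the members, against 6.09%, 6.32%, 8.05% and 3.12% of all genes. At 2-fold the members' share was thus below that of all genes. The count of 7, by the median over probe sets, was 17.5% against 10.3%. That of 14, without a filter on detection, was 29.2% against 18.4%. Quantile normalization turned the split over all detected genes to 6.09% higher and 7.28% lower, and that of the members to 12.5% and 7.5%. The count of 3 lower members was 5 without a filter on detection, which adds members detected on neither array. This was 10.4% against 8.48% of all genes. The median absolute log2 ratio was then 0.38, against 0.30 for all genes (main 0.21 and 0.22). It was also above that of all genes with median centring (0.24 and 0.20), quantile normalization (0.24 and 0.23), lowess centring (0.26 and 0.20) and the authors' deposited log ratio (0.25 and 0.20). With the median over probe sets it was below that of all genes (0.17 and 0.22). It was slightly below with 32 units added (0.205 and 0.206) and with genes present on both arrays only (0.218 and 0.222). At 2-fold 2 members were lower, Pts and Bco2, or 5% against 0.82% of all genes. Pts, Alg9, Zbtb16, Npat and Cul5 stayed past 1.5-fold in their direction under all 8 alternatives other than the 2-fold size, and Bco2 in the 7 that gave it a value, at log2 ratios from -1.22 to -0.90 for Pts and from -0.98 to -0.60 for Alg9. Gm5617, Htr3a, Zc3h12c, Atm and Slc35f2 each dropped under 1.5-fold in 3 of 8, and Exph5 and Tagln by the authors' deposited log ratio alone. No member at least 1.5-fold apart turned its direction under these alternatives. The median log2 ratio of the members stayed between 0.00 and 0.11. No paired analysis was possible because each genotype has 1 array. With no replicates, no library could be left out, and the cause of these shifts was not tested.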
